A study of Bos indicus with 8 samples.

Results

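The cytosolic ribosome is assembled from ribosomal RNA and one copy of most of its proteins, those of the large subunit having symbols that begin with RPL and those of the small subunit RPS. Their mRNAs are among the most abundant of a growing cell and share a pyrimidine tract at the 5′ end through which mTOR signalling controls their translation. In the cattle embryo the embryo's own ribosomes are built from genome activation onwards, and the blastocyst is a stage of rapid growth and high protein synthesis.

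All array probes whose platform symbol was a cytosolic ribosomal protein were taken, with the stalk proteins RPLP0, RPLP1 and RPLP2 and the laminin receptor RPSA, and without the S6 kinases and other genes that only share the letters. This gave 68 genes on 121 probes, of the 15229 genes named on the array. RPL3L, the striated muscle paralog of RPL3, passed the background criterion on 3 arrays in each channel, under the 4 required, and was not tested, which left 67 genes on 120 probes, 42 of the large and 25 of the small subunit. A further 15 ribosomal protein symbols of the RefSeq gene table have no probe named for them and were not analysed here. Many of these genes have processed copies in mammalian genomes, so a probe may also have bound transcripts of a copy.

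The embryos were blastocysts of Bos indicus produced in vitro and graded 144 to 156 h after insemination. Vitrified embryos were cooled in liquid nitrogen on the Cryotop, a strip that holds them in a minimal volume, in 15% ethylene glycol, 15% dimethylsulfoxide and 0.5 M sucrose, stayed there at least 30 min, were warmed through sucrose and were cultured for 4 h. Control embryos waited at 37 °C in holding medium meanwhile and had the same 4 h of culture. Only embryos of normal appearance at the end of culture were kept, in pools of 10, so the values describe embryos that had recovered. RNA was amplified by T7 transcription. Pools were set against each other, 4 vitrified against 4 control per the series' design, on 8 arrays of 2 colours spread over 2 slides.

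The vitrified pool carried Cy5 on areas 1 and 3 of each slide and Cy3 on areas 2 and 4. Neighbouring areas were averaged into a dye-swap pair: pairs 1 and 2 come from the first slide (areas 1 with 2, and 3 with 4), pairs 3 and 4 likewise from the second. With the dye effect removed, ratios of neighbouring areas correlated at a mean r of 0.819 over all tested probes and 0.554 over the ribosomal genes, whereas arrays of the same labelled replicate number correlated at 0.099 and -0.052. Each pair is therefore 1 value here, n = 4. Values are log2 ratios of vitrified over control after loess normalization, which sets the centre of each array to 0 at each level of brightness. They are therefore relative to probes of like brightness on the same array. Between 72.3% and 79.2% of spots were above background on 7 arrays, and 28% on area 1 of the second slide, which belongs to pair 3. Markers of trophectoderm and inner cell mass were all tested (9 of 9), with 6 of 6 trophectoderm genes and 1 of 3 inner cell mass genes above 0. Markers of cumulus cells, which surround the egg, passed the filter too (8 of 8), with 4 of 8 above 0 and pair medians between -0.04 and 0.05. Single cumulus markers differed in spread: LUM had -0.20, 0.73, -0.72 and -2.17 in pairs 1 to 4, while FST stayed between -0.08 and 0.011. FST was also dimmer, with mean log2 signals of 7.3 (vitrified) and 7.2 (control) against 8.5 and 9.0 for LUM.

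Most ribosomal protein genes had ratios slightly above 0 under loess, a few percent more signal in vitrified than in control blastocysts. That is relative to probes of like brightness, and no single gene passed the test. The median log2 ratio over the 67 genes was 0.06, a 1.04-fold level, and 51 of them (76.1%) were above 0, against 51.9% of the 13136 named genes tested. With arrays centred on their medians in place of loess the count was 35 of 67 (52.2%), against 55% of all tested probes in that setting. The pair medians were 0.12, 0.06, 0.014 and 0.04 (SD 0.05, n = 4). All 4 pairs were above 0, pair 1 highest and pair 3 lowest, and the genes above 0 numbered 51, 50, 38 and 50 in pairs 1 to 4. The same median over all named genes was 0.0029, with pair medians of 0.0050, -0.0028, 0.012 and -0.0012. Of the 13136 named genes, 6755, 6428, 7075 and 6515 were above 0 in pairs 1 to 4. In pair 3 the ribosomal median (0.014) thus lay close to that of all named genes (0.012). In these pooled embryos, fewer cells of a type and less RNA per cell cannot be told apart.

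Under limma with Benjamini-Hochberg adjustment over all 34912 tested probes, 0 probes (0%) were called at 0.05. The smallest adjusted p was 0.502, and 2473 probes had an unadjusted p under 0.05. Among the ribosomal genes 21 were above 0 in every pair and 0 were below 0 in every pair. Of the named genes, 7.76% were above and 6.86% below in every pair. Of the 21, RPL12, RPLP0 and RPS6 (ratios of 0.02 to 0.03) had 15 or 16 of their 16 spots at the top of the scanner's range. RPS2, RPL27, RPL7, RPL27A, RPS16 and RPS21 had 11 to 14 spots there, and RPS24 had 4. Of the 10 tested probes of any gene with all 16 spots there, 8 were above 0. With such spots left out, 12 of 53 ribosomal genes were above 0 in every pair, with no share over all genes given for that setting. Under median centring 4 ribosomal genes were above 0 in every pair, a count for which no share over all genes is given here. At an unadjusted p under 0.05, 12 ribosomal genes were higher and 0 lower, against 4.5% and 4.61% of the named genes. The genes share 4 sets of pools and are not independent, so these counts describe the 8 arrays. Over the 67 genes, ratios of pairs 2 and 3 correlated at 0.531, and those of the other combinations of pairs at -0.171 to 0.233, so most pairs did not rank the genes alike.

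**Figure D1:**
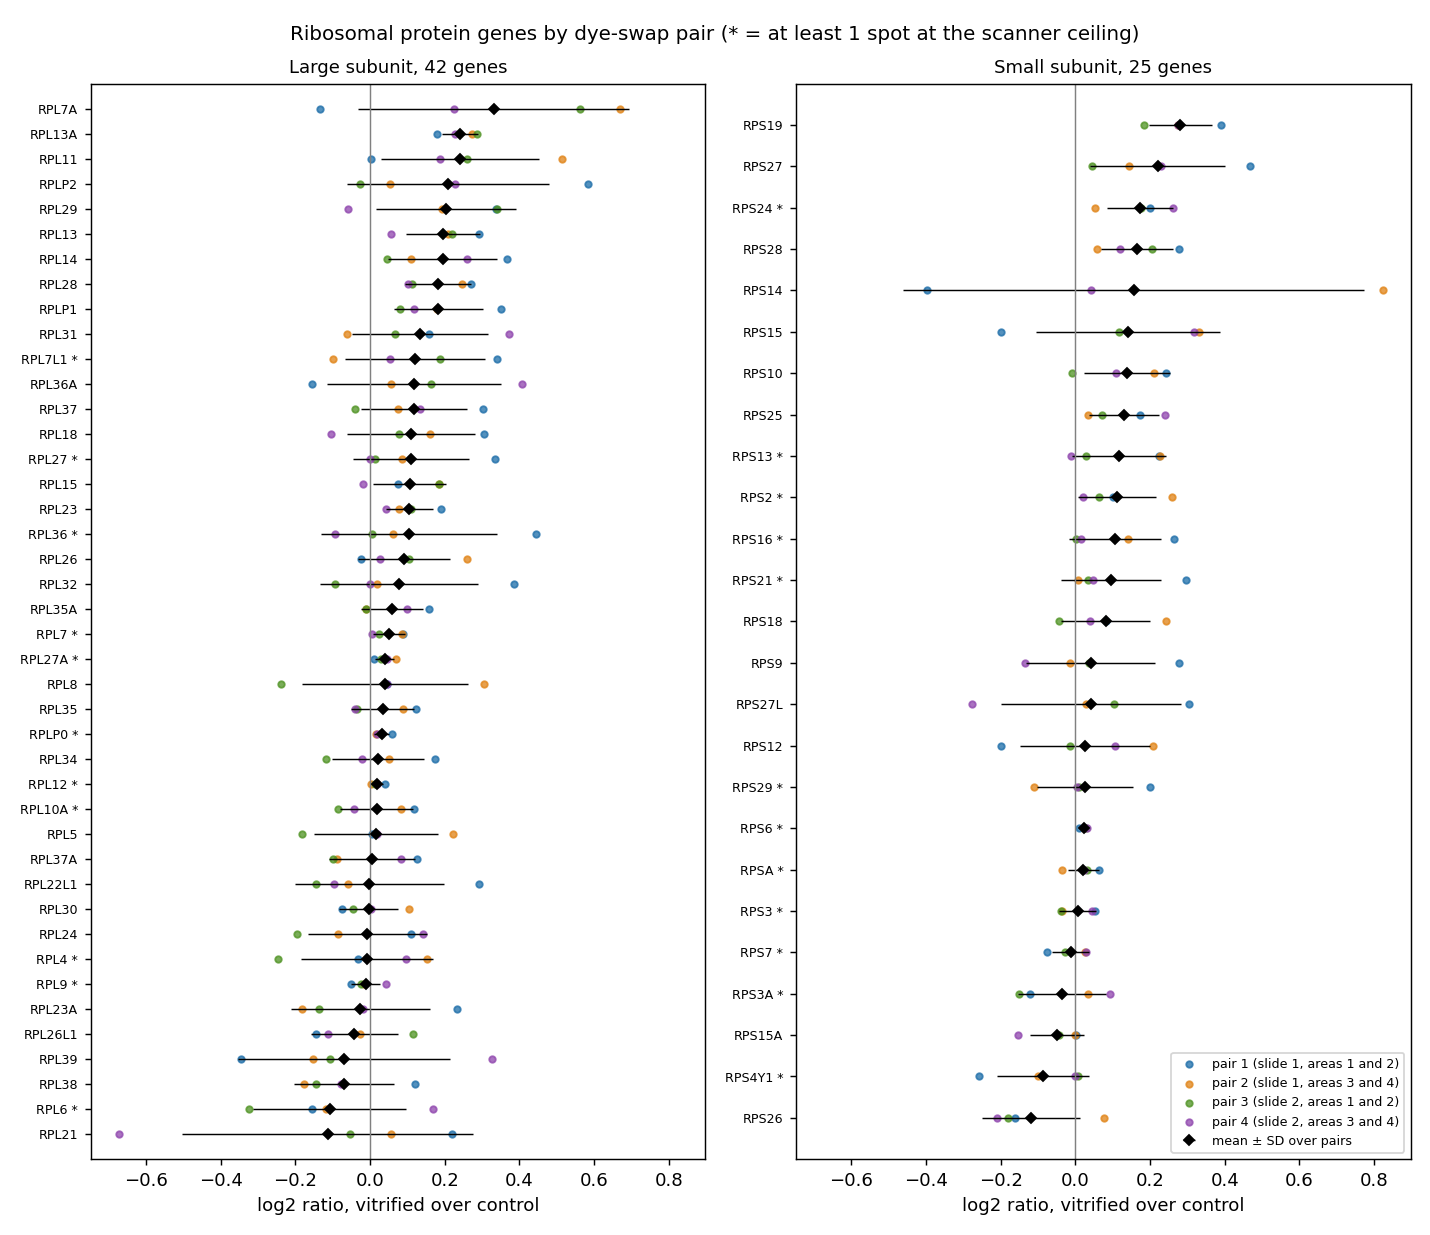
Log2 ratio of vitrified over control (horizontal) of the 42 large-subunit and 25 small-subunit genes, 1 probe per gene, with 1 coloured point per dye-swap pair and the mean ± SD over pairs in black (n = 4, RPS14 n = 3). Means lie above 0 for 51 of 67 genes, and for 46 of 67 genes the SD over pairs is larger than the distance of the mean from 0.

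Under loess, in the large subunit 31 of 42 genes were above 0, with a median of 0.05, 12 of them in every pair. In the small subunit 20 of 25 were above 0, with a median of 0.08, 9 of them in every pair. The large-subunit median was 0.026 below the small-subunit median when each gene's 4 pairs were averaged first, a log2 difference of -0.026. Taken pair by pair, the difference between the subunit medians was 0.023, 0.020, -0.020 and 0.003 (SD 0.020). Its sign differed between the pairs and between both ways of taking the median, so no difference between the subunits was resolved.

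Among the large-subunit genes above 0 in every pair, RPL13A had the smallest p. RPL13A, a large-subunit protein that in human monocytes also serves in a complex that silences translation, had ratios of 0.18, 0.27, 0.29 and 0.23 in pairs 1 to 4. Its mean was 0.24 ± 0.05 (SD, n = 4), a 1.18-fold level, with an adjusted p of 0.502 (limma). All 4 pairs lay close together on this probe. The second RPL13A probe had 0.19, 0.20, 0.18 and -0.026 (mean 0.14 ± 0.11), below 0 in pair 4, and the probes correlated at 0.163 over the pairs. RPL28 averaged 0.18 ± 0.09 over the 4 pairs and RPL13 0.19 ± 0.10. RPL14 averaged 0.19 ± 0.15 and RPL23, which in human cells also binds the p53 regulator MDM2, 0.10 ± 0.06. These 4 genes were highest in pair 1, and their adjusted p lay between 0.562 and 0.694 (limma). All these values are those of the brightest probe. The other RPL28 probes averaged 0.17 ± 0.24, below 0 in pair 4, and 0.23 ± 0.33, below 0 in pair 3. The other RPL13 probes averaged 0.16 ± 0.18 and 0.09 ± 0.15, both below 0 in pair 4 and the latter also in pair 2. The second RPL14 probe (0.18 ± 0.16) was above 0 in every pair.

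In the small subunit the same rule put RPS19 first. RPS19 is needed to mature the small subunit and is the gene most often mutated in Diamond-Blackfan anaemia of humans, a failure of red cell production. Its ratios were 0.39, 0.27, 0.18 and 0.27 in pairs 1 to 4. The mean was 0.28 ± 0.08 (SD, n = 4), 1.22-fold, and the adjusted p 0.502 (limma). RPS19 was above 0 on each of the 8 arrays, from 0.12 to 0.48, as were 2 of the 67 genes in all. RPS24, another Diamond-Blackfan gene, averaged 0.17 ± 0.09, with 4 of its 16 spots at the top of the scanner's range. RPS28, at the mRNA exit of the subunit, averaged 0.17 ± 0.10, RPS25, which some viral mRNAs need for their translation, 0.13 ± 0.09, and the zinc-finger protein RPS27 0.22 ± 0.18. Their adjusted p lay between 0.57 and 0.691 (limma). In the deposited value table RPS27 was at -0.019, the opposite direction. Of the 8 tested Diamond-Blackfan genes 6 were above 0, with a median of 0.10.

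Several of the highest and lowest means had wide spreads. RPL7A, a large-subunit protein, had the highest mean, 0.33 ± 0.36, from ratios of -0.13, 0.67, 0.56 and 0.23. Pair 1 was below 0 and the other 3 above. RPL11 had ratios of 0.0035, 0.51, 0.26 and 0.19 (mean 0.24 ± 0.21), with pair 1 again lowest. At the other end, RPL21 had ratios of 0.22, 0.06, -0.05 and -0.67 (mean -0.11 ± 0.39). Its low mean rests on pair 4, without which it was 0.07. The other RPL21 probes, all dimmer, averaged 0.07, -0.05 and -0.028, with 0.27, -0.15 and -0.04 in pair 4. RPS26, which contacts mRNA at the exit channel, averaged -0.12 ± 0.13 and RPL6 -0.11 ± 0.20, each with 1 pair above 0. The adjusted p of these 5 genes ran from 0.696 to 0.983 (limma).

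The stalk of the large subunit recruits the GTPases that drive elongation. All 4 of its genes had means above 0 under loess, but the brightest probes of RPLP0 and RPL12 were at the scanner's ceiling and lay at -0.010 and -0.023 under median centring. RPLP1 had ratios of 0.35, 0.18, 0.08 and 0.12 (mean 0.18 ± 0.12). RPLP2, its partner in the acidic dimers, had 0.58, 0.05, -0.026 and 0.23 (mean 0.21 ± 0.27). For both genes pair 1 was the highest and pair 3 the lowest. The second probe of RPL12, which was below the ceiling, had ratios of 0.17, 0.06, -0.22 and -0.09 and a mean of -0.017 ± 0.17.

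The 5S particle of RPL5, RPL11 and the 5S RNA binds MDM2 when ribosome assembly is disturbed. RPL5 had ratios of 0.0046, 0.22, -0.18 and 0.019 and averaged 0.016 ± 0.17, or -0.028 under median centring. RPL5 and the brightest RPL11 probe were both highest in pair 2, though RPL5 was below 0 in pair 3 and RPL11 was not. The second RPL11 probe had -0.04, 0.32, 0.04 and 0.43, highest in pair 4 and below 0 in pair 1, and the RPL11 probes correlated at 0.53 over the pairs. Of the proteins around the peptide exit 3 of 6 were above 0 (median 0.013). Of those at the mRNA entry and decoding site 3 of 3 were above 0 (median 0.11), and of those at the mRNA exit and platform 3 of 5 (median 0.021). The median of 0.11 is the brightest RPS2 probe, with 14 of its 16 spots at the scanner's ceiling. The median of 0.021 is the brightest RPSA probe, with all 16 there. Both medians are therefore limited by the ceiling. Of all named genes 51.9% were above 0.

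The paralogs lay on either side of 0. RPL22L1, the counterpart of RPL22, averaged -0.0017 ± 0.20, and RPL26L1 -0.04 ± 0.12. RPS27L, a paralog of RPS27 that p53 induces in human cells, had ratios of 0.31, 0.03, 0.10 and -0.28 (mean 0.04 ± 0.24, or -0.0055 under median centring). Pair 1 and pair 4 opposed each other, as they did for RPL22L1. RPL7L1, a paralog of RPL7, averaged 0.12 ± 0.19 on its brightest probe, the highest of its 6 probes, whose means ran from -0.021 to 0.12. The probe annotated RPS4Y1, a symbol that the bovine RefSeq table does not hold, was saturated in all 8 control spots and 6 of 8 vitrified spots, so no fold is given. Only 2 of these 5 genes were above 0. Without them 49 of 62 genes were above 0, with a median of 0.08.

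Ribosomal genes were bright: 57 of the 67 lay in the brightest 10% of tested probes. Spots piled up just above a scanner signal of 32768 (log2 of 15): 1327 Cy5 spots fell between log2 15.1 and 15.3, and 45 above that, while 906 Cy3 spots fell between 14.9 and 15.1 and 311 above. Signals of at least 32768 are here called at the ceiling, a limit set after the values were seen. Of the 277 tested probes with at least 1 such spot, 34 were ribosomal. The 86 ribosomal probes with no spot at the ceiling had a median ratio of 0.08 and a median SD over pairs of 0.16. The 32 probes with 1 to 15 such spots of their 16 had 0.05 and 0.11. The 2 with all 16, the brightest probes of RPL12 and RPSA, had ratios of 0.019 and 0.021 and a median SD of 0.028, and as both channels were saturated no fold is given for them.

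**Figure D2:**
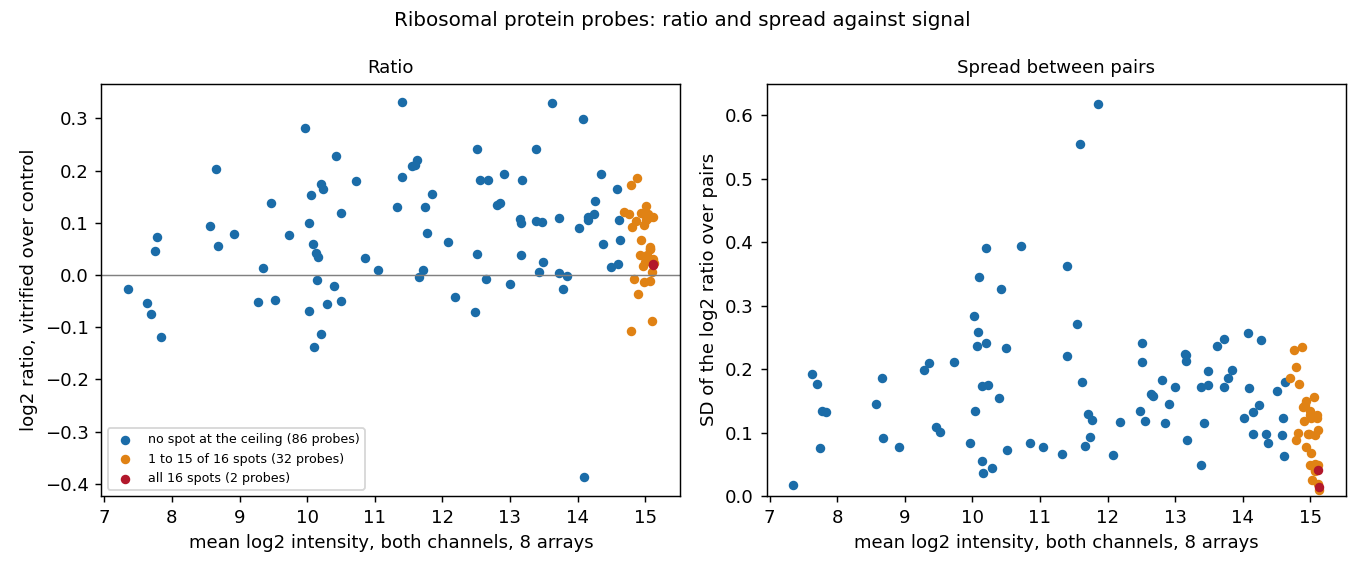
Log2 ratio of vitrified over control (left) and SD over the 4 pairs (right) of the 120 ribosomal probes against mean log2 intensity, coloured by the number of spots at the scanner's ceiling. Probes with all 16 spots at the ceiling sit at a ratio of about 0.02 with SDs of 0.015 and 0.04, while the 86 probes with none scatter around a median of 0.08.

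Genes with several probes allowed saturated and unsaturated probes of one gene to be set side by side. RPS2, which lines the mRNA entry channel, had a brightest probe with 14 of 16 spots at the ceiling and ratios of 0.10, 0.26, 0.06 and 0.020 (mean 0.11). Its other probes had no spot there: one had 0.33, 0.65, 0.26 and 0.08 (mean 0.33 ± 0.24), the other 0.28, 0.62, 0.30 and -0.0064 (mean 0.30 ± 0.26). All 3 probes put pair 2 highest and pair 4 lowest, with smaller steps on the saturated probe. RPS6, the substrate of the S6 kinases, had 15 and 12 ceiling spots on its 2 probes, with means of 0.024 (-0.017 under median centring) and 0.12. Neither RPS6 probe was free of the ceiling.

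RPLP0, the stalk's base and often a reference gene in PCR, had 12 probes, all with means above 0, from 0.024 to 0.19. Its 3 probes with no ceiling spot averaged 0.07 ± 0.18, 0.11 ± 0.13 and 0.10 ± 0.21. On the brightest probe, with 15 ceiling spots, the 4 pairs spanned only 0.016 to 0.06, whereas one of the unsaturated probes spanned -0.22 to 0.25. RPSA had means of 0.0048 ± 0.25 and 0.014 ± 0.21 on its 2 unsaturated probes, which both put pair 3 lowest, at -0.33 and -0.29.

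With ceiling spots left out and the brightest complete probe chosen again, 53 genes had a value. Of these 41 were above 0, with a median of 0.08 and pair medians of 0.17, 0.09, 0.0083 and 0.05. The large subunit had a median of 0.07 over 36 genes and the small subunit 0.10 over 17, of which 15 were above 0.

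**Figure D3:**
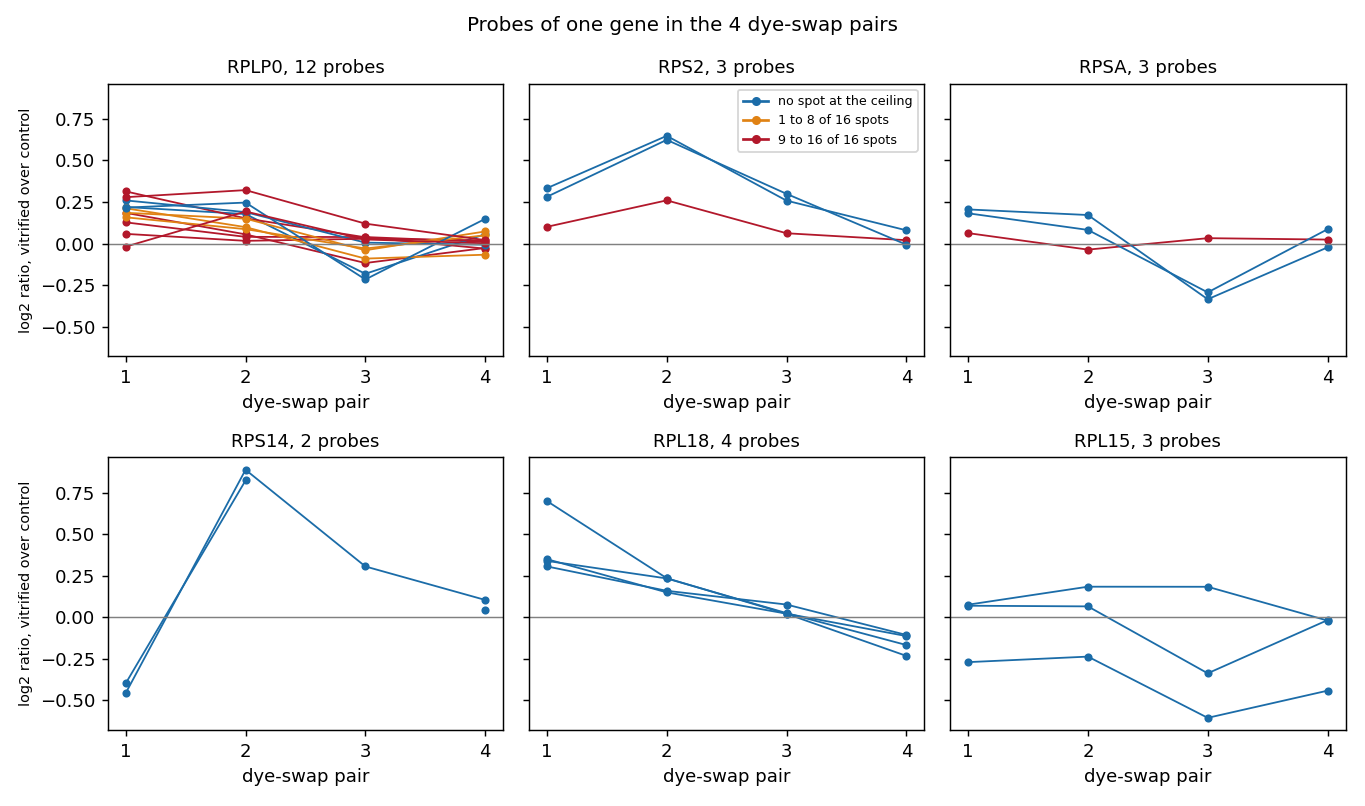
Log2 ratio of vitrified over control (vertical) in dye-swap pairs 1 to 4 (horizontal), 1 line per probe, for 6 genes, coloured by spots at the ceiling. Probes of RPS2, RPS14 and RPL18 follow one shape within each gene, the saturated RPSA probe stays near 0 in pair 3 where the others lie at -0.33 and -0.29, and 1 of the 3 RPL15 probes lies below 0 in every pair.

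Differences between pools repeated across probes. In the 19 genes with at least 2 probes and no ceiling spot on them, the deviations of the 2 brightest probes from their own means correlated at 0.614 over all genes and pairs. In 9 of these genes the correlation over the 4 pairs was above 0.8. The probes share the arrays and pools, so this is a description of reading precision. RPS14, RPL18, RPL36A and RPL15 are named next because of their values and lie outside the rule for named genes.

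RPS14, a platform protein lost in a deletion syndrome of human bone marrow, had the widest spread. One probe had ratios of -0.46, 0.89, 0.31 and 0.10, and the other -0.40, 0.82 and 0.04 in pairs 1, 2 and 4, its pair 3 value being lost to a spot marked to be ignored. Both probes put pair 1 lowest and pair 2 highest. The 4 probes of RPL18 averaged 0.10 to 0.18, each highest in pair 1 and below 0 in pair 4. The 3 probes of RPL36A, in contrast, were below 0 in pair 1, at -0.13, -0.16 and -0.32, and above 0 in the other pairs.

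RPL15 was the gene whose probes disagreed most. Its brightest probe averaged 0.11 ± 0.10, another -0.05 ± 0.19, and the third -0.39 ± 0.17 with all 4 pairs below 0, from -0.24 to -0.60. Which transcript each probe binds was not tested. Of 28 genes with several tested probes, 20 had all their probes on one side of 0, and the median range between the probes of a gene was 0.06.

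The centring of the arrays moved the ribosomal genes as a block. With each array centred on its median the ribosomal median was 0.015. The pair medians were then 0.18, -0.0073, -0.12 and 0.0028. The brightest 10% of all tested probes moved with them, to 0.07, -0.08, -0.12 and -0.04, whereas under loess they lay at 0.022, -0.00075, 0.0073 and -0.00022. Set against the median of those brightest 10%, a comparison added after seeing the data, the ribosomal median was 0.058 under loess and 0.060 under median centring. By this measure 51 and 52 of the 67 genes were above the median of the brightest probes, a level that as many of those probes exceed as fall below. Pair 3 was the exception, with differences of 0.0062 and -0.00096.

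**Figure D4:**
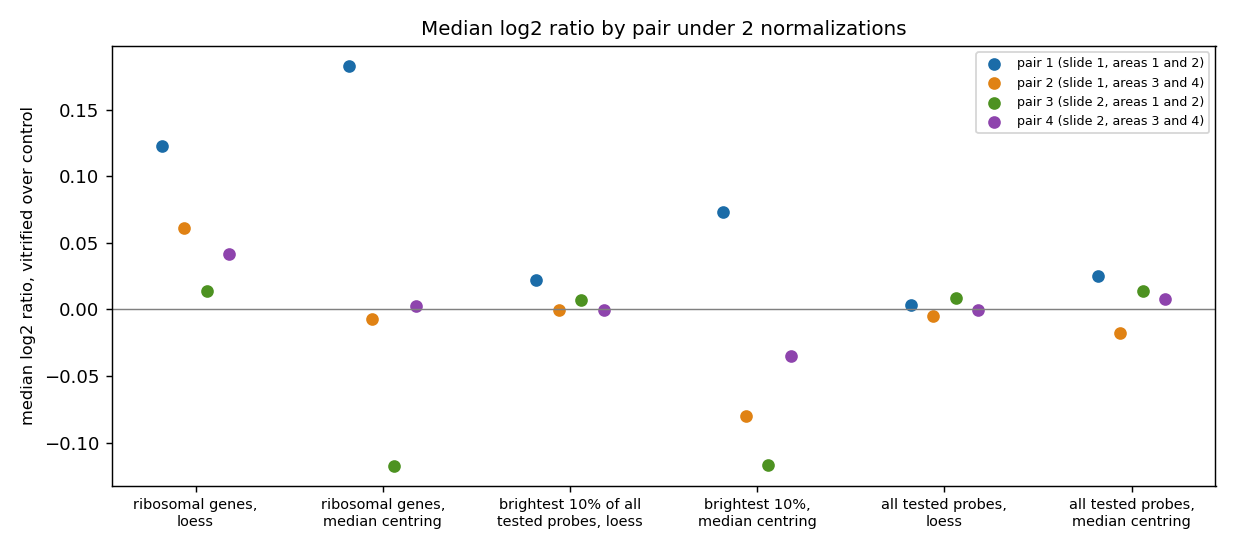
Median log2 ratio of vitrified over control in each dye-swap pair for the 67 ribosomal genes, the brightest 10% of tested probes and all tested probes, under loess and under median centring. Median centring spreads the pair medians of the ribosomal genes from -0.12 to 0.18 and those of the brightest probes in the same order.

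The ratio also varied with slide and dye. The median over genes was 0.12 with the first slide alone and 0.016 with the second. On slide 1 the arrays with vitrified RNA in Cy5 had medians of 0.13 and 0.17, those with it in Cy3 medians of 0.05 and 3.4e-06. On the second slide they were 0.0029 and 0.0068 in Cy5, and 0.05 and 0.08 in Cy3. The higher medians thus stood with Cy5 on the first slide and with Cy3 on the second. The dye term (red over green) ran from -0.54 to 0.43 and was larger than the vitrification ratio in 35 of 67 genes. It cancels within a pair. Without pair 1 the median was 0.033, and without pair 3, which holds the array with 28% of spots above background, 0.08 with 57 genes above 0. Markers of the 2 cell lineages of the blastocyst also varied by pair. IFNT, the pregnancy signal of the ruminant conceptus, had ratios of 0.97, 0.67, 0.16 and 1.38, and KRT8, a keratin of the trophectoderm, 0.54, 0.71, 0.013 and 0.53, with 12 of its 16 spots at the ceiling. Among other trophectoderm markers, KRT18 averaged 0.56 ± 0.81. CDX2 and GATA3, dim and above background on 7 arrays, averaged 0.09 ± 0.24 and 0.03 ± 0.13. NANOG, a pluripotency factor of the inner cell mass, had -0.79, -0.24, -0.32 and -0.55, below 0 in every pair (mean -0.48 ± 0.24, adjusted p 0.518, limma). POU5F1, the 1 of 3 inner cell mass markers above 0, had 0.19, -0.04, 0.11 and 0.06 (mean 0.08 ± 0.09). Of the 6 trophectoderm markers 5 were lowest in pair 3, where the ribosomal median was lowest too, and TFAP2C was lowest in pair 2. The other pairs did not match: the trophectoderm medians were 0.18, 0.45, -0.04 and 0.49 in pairs 1 to 4, highest in pair 4. The ribosomal median was highest in pair 1. None of the 3 inner cell mass markers was lowest in pair 3. The part of cell composition in the ribosomal values was not tested.

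Gene groups that act with the ribosome were measured on the same arrays, from lists drawn up with earlier results of these data known. For each list the share of all named genes above 0 was 51.9%, and 7.76% were above 0 in every pair. Mitochondrial ribosomal proteins, which build the separate ribosome of the organelle, had a median of 0.04. Of these, 46 of 75 (61.3%) were above 0 and 5 of 75 in every pair, the latter no more than the share of all named genes. Their pair medians were 0.04, 0.04, 0.07 and -0.07, so pair 4 was below 0, where the cytosolic genes were not. Other translation genes whose mRNAs carry the same pyrimidine tract, among them the ribosome-bound GNB2L1 (RACK1) and FAU, the precursor of a small-subunit protein, had 6 of 16 above 0 and a median of -0.024. Ribosome assembly and RNA polymerase I genes had 23 of 46 above 0 (median -0.0019), and regulators around mTOR and MYC 5 of 13 (median -0.015). No difference between these groups and the ribosomal genes was tested.

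**Figure D5:**
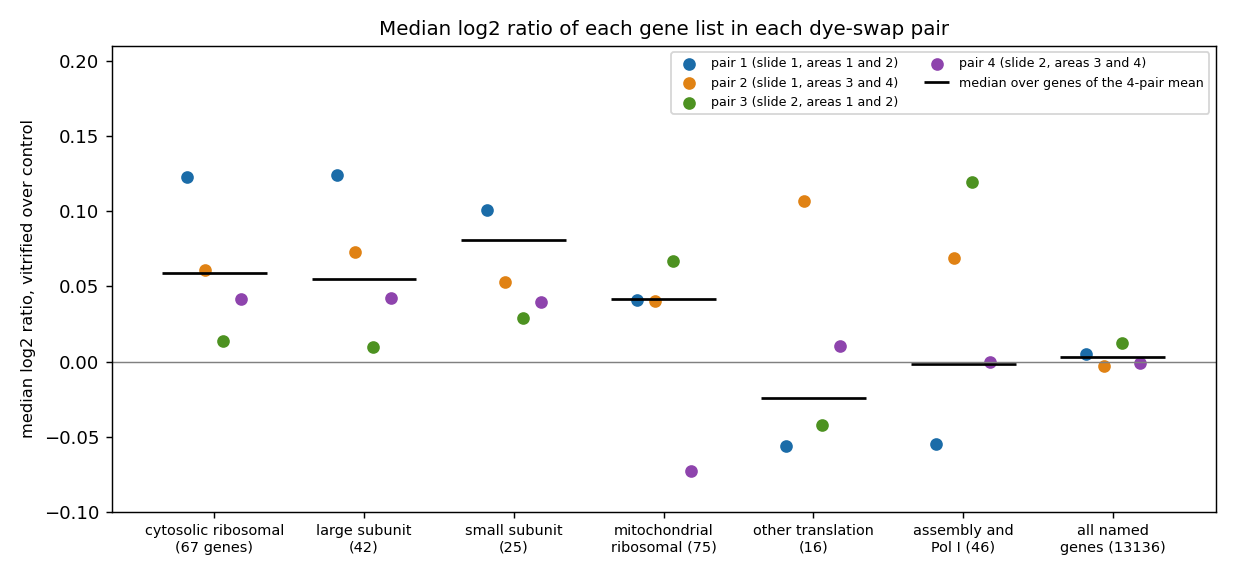
Median log2 ratio of vitrified over control of each gene list, with 1 coloured point per dye-swap pair and a black bar for the median over genes of the 4-pair mean. Only the cytosolic ribosomal lists have all 4 pair medians above 0 among the 7 shown, and those of all named genes lie between -0.0028 and 0.012.

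Single genes of these groups did not all follow their list. The elongation factor EEF2, which moves the ribosome along mRNA, had ratios of 0.30, 0.27, 0.33 and 0.20 (mean 0.27 ± 0.05). EEF1D, which recharges the factor that delivers tRNA, had 0.38, 0.18, 0.35 and 0.24 (mean 0.29 ± 0.09). Both were above 0 in every pair, with adjusted p of 0.502 (limma), in a list whose median lay below 0. GNL2, a nucleolar GTPase of large-subunit export, averaged -0.28 ± 0.10 and was below 0 in every pair, while POLR1D, a subunit of RNA polymerases I and III, averaged 0.32 ± 0.15 (adjusted p 0.505 and 0.518, limma). MYC, a transcription factor that raises ribosomal gene expression, averaged -0.22 ± 0.14 with every pair below 0, and RHEB, the activator of mTOR, 0.09 ± 0.06 (adjusted p 0.605 and 0.741, limma).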

How the data were processed

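Per the file headers, the deposited scanner tables give raw Cy5 and Cy3 intensity for every spot, with a local background value beside it. The authors' deposited value table holds 1 log2 value per probe and array. Set against the scanner ratios it correlated at 0.748 to 0.849 with slopes of 0.959 to 1.36, which set its scale (log2) and direction (vitrified over control). Column medians in area order were, for slide 1, 0.00313, -0.00115, -0.00032 and 0.00352, and, for slide 2, -0.00977, 0.000641, -0.0102 and 0.0104. How the authors normalized and centred it is unknown here.

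Mean intensities were corrected with normexp (offset 50) and normalized by loess within arrays, giving control spots weight 0 (limma 3.58.1, R 4.3.3). A probe entered the test if its log2 signal lay over 2 SD above the mean of 153 negative controls on at least 4 of 8 arrays in either channel. The 4 dye-swap pair means were tested against 0 with lmFit and eBayes, adjusted over all tested probes, and the fit was tested on simulated data. A gene's brightest tested probe stood for it. Where nothing says that pools came from separate collections, p-values measure the spread between these pools only.

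Gene symbols are those of the platform annotation, with 1 symbol for 21790 probes, several for 0 and none for 22004. The bovine RefSeq table held 66 of the 68 ribosomal symbols. Positions and sequences were not used here. Genes were named by rule: 6 per subunit with the smallest p among those with one sign in all pairs, the 4 highest and 4 lowest, the stalk, 5S particle and paralogs, RPSA and RPS6, and 2 per other list. The members and lists were chosen with earlier results of these data known. Alternatives changed the background correction, normalization, filter, probe choice, value source, unit of replication, slide, ceiling spots and membership, and left out each pair. The precision is limited by 4 pairs.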

Additional observations from a re-analysis of the deposited data

Results flagged for a closer look

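RPS26, a small-subunit protein at the mRNA exit, had 1 pair far from the others. Its ratio was 0.077 in pair 2, against -0.16, -0.18 and -0.21 in pairs 1, 3 and 4, a gap of 0.836 of the whole range. The probe was dim, above background on 7 arrays in either channel, and the second RPS26 probe also had its pair 2 value (0.0087) above those of pairs 1 and 3 but below pair 4. Of 32 items examined in this way 1 was marked, where chance marks about 1 in 20.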

How the results depend on the processing

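Under the alternatives run the ribosomal median stayed above 0, from 0.015 under median centring to 0.117 with the first slide alone (0.016 with the second). The number of genes above 0 was 35 to 57 and, leaving out each pair, 47 to 57. The number above 0 in every pair (21) was 4 under median centring, 6 with the deposited table and 12 of 53 genes with ceiling spots left out. It was 39 with the first slide alone, where only 2 pairs had to share the sign. It was 2 where all 8 arrays had to be above 0, with the arrays as independent samples or with a replicate block. The share of all genes in each of these settings is not given here. These counts therefore cannot be set against the 7.76% of named genes over 4 pairs. The difference between the large and small subunits was 0.0026 with the deposited table, the one setting in which it was above 0. Treating the 8 arrays as independent called 380 probes, and adding the labelled replicate number as a replicate block (correlation -0.0927) called 664. These fits count each pool as more than 1 sample. RPL13A and RPS19 then had adjusted p of 0.0329 and 0.0232 (limma), and 0.0211 and 0.0141 with the block, against 0.502 over pairs. Of 555 recomputed values of named genes 21 changed sign, among them RPLP0, RPL12, RPL5, RPS27L, RPSA and RPS6 under median centring. Apart from those constructions the cause of these shifts was not tested. The number of pairs (4) limits the test, and the ceiling limits the ratios of the brightest probes.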
